A study of Solanum lycopersicum with 84 samples.

Results

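The genes described here encode ribosomal protein L26 of the large (60S) ribosomal subunit and asparaginyl-tRNA synthetase. They were taken by identifier as Solyc02g092430.1 and Solyc02g064670.1, both annotated as 60S ribosomal protein L26, and Solyc10g080710.2, annotated as asparaginyl-tRNA synthetase (AsnRS). These are 3 genes of the 34075 in the table, and all 3 passed the filter on low counts in every fit. The identifiers number the L26 genes on chromosome 2 and the synthetase gene on chromosome 10 of the tomato genome (build 4.0). The study's gene lists assign both L26 genes to the same Arabidopsis homologue, so they are treated here as copies whose reads could be split between them.

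Ribosomal proteins and aminoacyl-tRNA synthetases serve different steps of translation. L26 sits on the large subunit beside the exit of the tunnel through which the new polypeptide leaves the ribosome, and plant genomes commonly carry more than one gene for it. Asparaginyl-tRNA synthetase joins asparagine to its tRNA, and in Arabidopsis loss of the cytosolic enzyme is lethal to the embryo. Asparagine is also a major compound in which plants store nitrogen and move it between organs. Ribosomes hold a large part of the nitrogen in a plant cell, and transcripts for ribosomal proteins are known to respond to nutrient supply in many plants.

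The study asked how tomato roots and shoots respond to a supply of nitrate. Plants of the cultivar M82 were grown in hydroponics, moved at 22 days of age to nitrogen-free medium for 4 days, and then given nitrate-containing medium (+N) or fresh nitrogen-free medium (−N) and harvested after 6 h. The series' design text calls the control nitrogen replete, whereas the treatment labels of the samples and the study's methods give −N as nitrogen-free, and these were followed. All 4 groups, shoots +N, shoots −N, roots +N and roots −N, had therefore been starved of nitrogen first. Poly(A) RNA was sequenced from 3 biological replicates per group, 12 libraries in all, each from tissue pooled over several plants. The libraries held between 17472760 and 21901432 counted reads. Levels are given as CPM, the counts of a gene per 1000000 counted reads of its library. The summed CPM of 7 photosynthesis genes used as shoot markers was 4248 to 4575 in shoots +N, 3009 to 3673 in shoots −N and at most 14 in roots. That of 7 root genes was 343 to 372 in roots +N, 394 to 453 in roots −N and 31.1 to 36.4 in shoots, so the organ labels matched. Within its own organ, the shoot marker sum was higher after +N and the root marker sum was lower. In shoots 3 of the 7 shoot markers met the 2-fold rule upwards (adjusted p below 0.015 and over 2-fold in edgeR) and none downwards. In roots 4 of the 7 root markers met it upwards, homologues of genes of root hairs among them (the EXPA7 homologues Solyc08g007780.3 and Solyc08g080060.4 by 8.03-fold and 5.88-fold). The 1 downwards was the Casparian strip gene Solyc02g067190.4, with 1.86 CPM in roots −N and 0 in roots +N. The root hair homologue Solyc02g092580.3, which held most of the root marker sum, had 370 CPM in roots −N and 314 CPM in roots +N. Its change was log2 −0.24 ± 0.06 (adjusted p of 0.0035). Another, Solyc01g009410.3, did not pass (log2 0.12 ± 0.15, adjusted p of 0.51). The CPM of these single markers are scaled with TMM factors. The part of these markers in the changes described here was not tested. In whole organs, fewer cells of a type and less RNA per cell cannot be told apart.

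In shoots, both L26 genes and the synthetase gene rose after +N. The L26 gene Solyc02g092430.1 had 385, 371 and 369 CPM (scaled with TMM factors over all 12 libraries) in shoots +N, against 62.4, 68.0 and 74.9 CPM in shoots −N. The lowest +N library stood far above the highest −N library, and the −N libraries differed more among themselves, relative to their mean, than the +N libraries did. The fitted change was 5.83-fold, or 2.54 ± 0.06 on the log2 scale (SE), with an adjusted p of 2.38e-17 in edgeR's quasi-likelihood test. The second L26 gene, Solyc02g064670.1, had 248, 252 and 247 CPM in shoots +N, against 55.1, 55.5 and 64.8 CPM in shoots −N. Again the groups did not overlap, and replicate 3 was the highest −N library for both copies. Its fitted change was 4.53-fold (log2 2.18 ± 0.06, adjusted p of 1.93e-16).

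The synthetase gene Solyc10g080710.2 had 349, 336 and 344 CPM in shoots +N, against 171, 173 and 181 CPM in shoots −N. These groups did not overlap either, but they lay closer together than those of the L26 genes. The fitted change was 2.09-fold (log2 1.06 ± 0.05, adjusted p of 2.39e-13), just beyond the 2-fold limit, and its 95% interval ran over log2 0.96 to 1.16. All 3 genes met the rule for a differentially expressed gene (adjusted p below 0.015 and over 2-fold), which 13.4% of the 20689 genes tested in shoots met in the same direction. The synthetase gene lost that call, though not its direction, under scaling to total counts (log2 0.77), which placed the median of all genes at log2 −0.30, and in a fit of all 12 libraries together (log2 0.97). Relative to the median of all genes its change was 1.07 with either scaling. That agreement is fixed by construction, since scaling shifts a gene and the median nearly alike, and does not bear on the 2-fold call. The study lists all 3 genes among those it found to be up-regulated in these same shoots, so their direction there is not independent evidence.

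**Figure D1:**
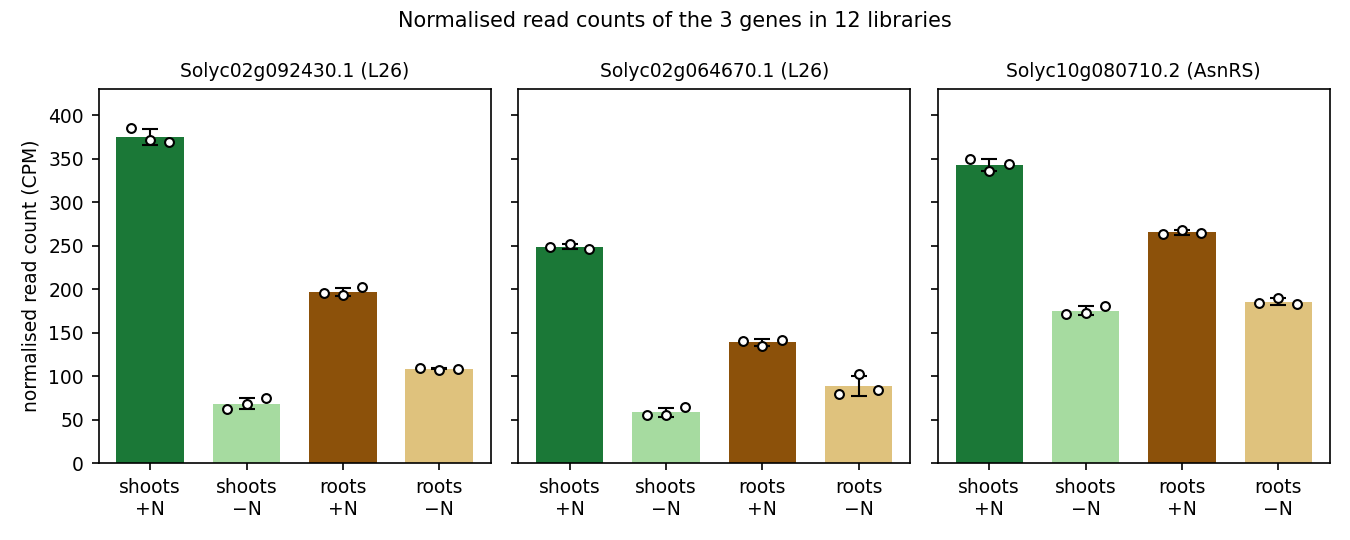
Normalised read counts (CPM, vertical axis) of Solyc02g092430.1, Solyc02g064670.1 and Solyc10g080710.2 in shoots +N, shoots −N, roots +N and roots −N. Bars are means, error bars SDs over 3 libraries and circles single libraries; in each panel shoots +N is the highest group, with means of 375, 249 and 343 CPM, and the L26 panels have their lowest group in shoots −N, with means of 68.4 and 58.5 CPM.

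In roots, the same 3 genes rose after +N by less than 2-fold each. Solyc02g092430.1 had 196, 193 and 202 CPM in roots +N, against 109, 108 and 109 CPM in roots −N. Its fitted change was 1.81-fold (log2 0.86 ± 0.05, adjusted p of 4.99e-10). Solyc02g064670.1 had 141, 135 and 141 CPM in roots +N, against 79.9, 102 and 83.9 CPM in roots −N. The −N replicate 2 library stood above the other two for this gene but below all +N libraries. The fitted change was 1.56-fold (log2 0.64 ± 0.07, adjusted p of 2.42e-06), and without that library it was log2 0.76, the highest value when single libraries were left out.

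The synthetase gene Solyc10g080710.2 had 263, 268 and 264 CPM in roots +N, against 184, 190 and 183 CPM in roots −N. Its groups were each tight and did not overlap, and its fitted change of 1.43-fold (log2 0.52 ± 0.04, adjusted p of 7.98e-08) was the smallest of the 3. None of the 3 genes met the 2-fold rule in roots, which 6.23% of the 21049 genes tested there met in the +N direction. All 3 passed an adjusted p of 0.05, as did 29.2% of the genes tested in roots and 34.8% of those tested in shoots in the same direction. Groups that did not overlap, with every +N library above every −N library, were found for the 3 genes in both organs, and for 32.3% of genes tested in shoots and 32.1% of those tested in roots. An exact two-sided permutation test on a single gene gave p = 0.1 for each of the 3 genes in either organ, the smallest that 3 against 3 libraries allow.

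The split of calls over all genes depended on the scaling. Of the genes called at an adjusted p of 0.05, 51.0% were higher in +N in shoots and 50.4% in roots. With total counts in place of TMM factors these shares were 32.3% in shoots and 33.4% in roots, with the median of all genes at log2 −0.30 in shoots and −0.18 in roots. Relative to that median, the changes of Solyc02g092430.1 (2.55 in shoots and 0.87 in roots) and Solyc02g064670.1 (2.19 in shoots and 0.66 in roots) were the same with both scalings, to 2 decimals. A new scaling shifts any gene and the median by nearly the same amount, so this agreement holds by construction and tests nothing.

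The response to +N was larger in shoots than in roots for each of the 3 genes. The N by organ interaction, the log2 change in shoots minus that in roots fitted over all 12 libraries, was 1.59 ± 0.08 for Solyc02g092430.1 (adjusted p of 5.81e-13). For the second L26 gene, Solyc02g064670.1, it was 1.44 ± 0.10 (adjusted p of 2.15e-10). For the synthetase gene Solyc10g080710.2 it was 0.45 ± 0.06 (adjusted p of 2.24e-06), with a 95% interval of 0.33 to 0.58 that did not reach the intervals of the L26 genes (1.43 to 1.75 for Solyc02g092430.1 and 1.23 to 1.66 for Solyc02g064670.1). That fit scales all 12 libraries together, and its changes in shoots were log2 2.45 (Solyc02g092430.1), 2.09 (Solyc02g064670.1) and 0.97 (Solyc10g080710.2). The interactions are therefore smaller than the changes in shoots minus those in roots given above. With DESeq2's size factors they were 1.67, 1.52 and 0.53. A larger change in shoots at an adjusted p of 0.05 was found for 22.9% of the 22483 genes tested in the main fit of all 12 libraries. The study's methods give a lower minimum of RNA integrity for shoots than for roots, and the part of RNA integrity in these differences was not tested.

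**Figure D2:**
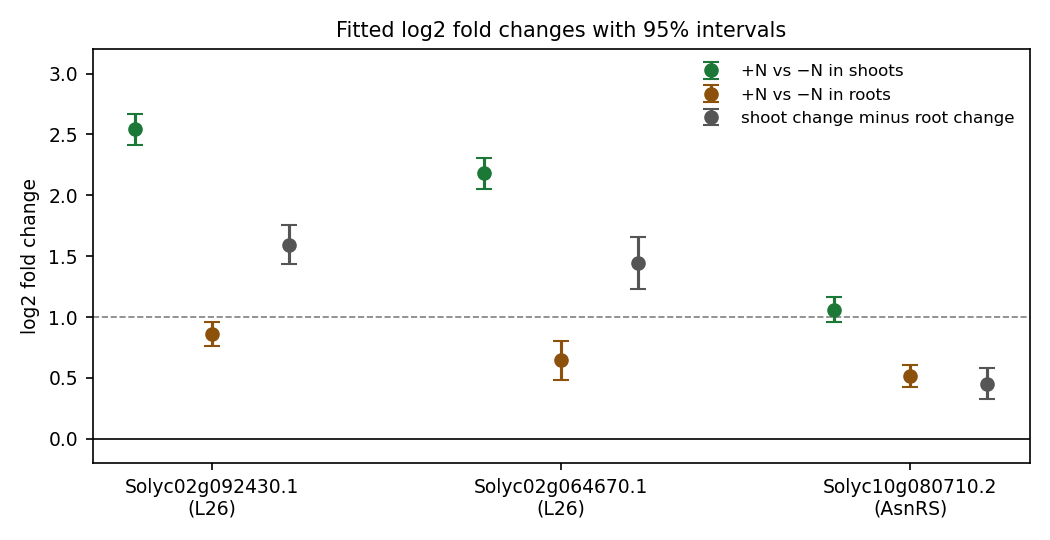
Fitted log2 fold changes (vertical axis) of the 3 genes for +N vs −N in shoots (green), +N vs −N in roots (brown) and the shoot change minus the root change (grey), with 95% intervals. The grey values come from the fit of all 12 libraries, the others from each organ fitted apart. The dashed line marks a 2-fold change; the shoot values of 2.54, 2.18 and 1.06 lie above it and the root values of 0.86, 0.64 and 0.52 below it.

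The order of the organs turned with nitrate for both L26 genes, which were higher in shoots than in roots under +N and lower in shoots than in roots under −N. Between shoots +N and roots +N, Solyc02g092430.1 was 1.90-fold higher in shoots (375 ± 8.87 and 197 ± 4.68 CPM, SD, n = 3 each; log2 0.93 ± 0.05, adjusted p of 3.79e-13 in edgeR). Solyc02g064670.1 was 1.79-fold higher (249 ± 2.68 and 139 ± 3.62 CPM; log2 0.84 ± 0.07, adjusted p of 3.89e-10). The synthetase gene Solyc10g080710.2 was 1.29-fold higher (343 ± 6.64 and 265 ± 2.54 CPM; log2 0.37 ± 0.04, adjusted p of 6.56e-08). Thus all 3 genes were higher in shoots than in roots under +N, as were 40.6% of all genes tested.

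Under −N, Solyc02g092430.1 was lower in shoots, with 68.4 ± 6.24 CPM against 108 ± 0.747 CPM in roots (log2 −0.66 ± 0.06, adjusted p of 4.57e-10). Solyc02g064670.1 was lower as well, with 58.5 ± 5.48 CPM in shoots against 88.7 ± 11.8 CPM in roots (log2 −0.60 ± 0.08, adjusted p of 2.57e-07). A lower level in shoots under −N at an adjusted p of 0.05 was found for 37.1% of genes tested. The synthetase gene Solyc10g080710.2 had 175 ± 5.14 CPM in shoots and 185 ± 3.94 CPM in roots, a difference that missed the threshold (log2 −0.08 ± 0.04, 95% interval −0.17 to 0.0069, adjusted p of 0.087), although its highest shoot library lay below its lowest root library. This call depended on the scaling and on a single library: the adjusted p was 0.0054 with DESeq2's size factors, 9.86e-04 with total counts, 0.0013 in DESeq2's Wald test and 0.0383 without shoots −N replicate 3.

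The levels of each L26 gene were therefore ordered as shoots +N, roots +N, roots −N and shoots −N, and each neighbouring pair in that order differed in the tests above. The synthetase gene followed the same order, but its lowest groups, shoots −N and roots −N, did not differ beyond the threshold. Levels were not compared between genes, since no gene lengths were used here. Over the 12 libraries the log2 CPM of the L26 copies had a Pearson r of 0.993. The synthetase gene had an r of 0.981 with Solyc02g092430.1 and 0.974 with Solyc02g064670.1. These values are descriptions of libraries that share 4 groups and a common nitrate response, and carry no test.

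Within a library, the reads of the L26 copies can be compared without any scaling. Solyc02g092430.1 took 60.8%, 59.6% and 59.9% of the reads of both L26 genes in shoots +N, against 53.1%, 55.0% and 53.6% in shoots −N. Exact binomial 95% intervals, which cover counting error only, ran over 59.9% to 61.7% for the first shoots +N library and 51.1% to 55.1% for the first shoots −N library. The groups did not overlap, and the share was 6.19 percentage points higher in shoots +N (exact two-sided permutation p = 0.1, the smallest possible).

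In roots the shares were 58.2%, 58.9% and 58.9% in +N libraries, against 57.7%, 51.3% and 56.4% in −N libraries. The mean difference of 3.53 percentage points rested mostly on −N replicate 2, the library with the high count of Solyc02g064670.1, and was 1.60 percentage points without it. With every library the exact permutation p was 0.1 in roots too, and 0.1 after the Benjamini-Hochberg adjustment over the 4 within-library comparisons made. How reads that map to more than one gene were counted, and whether strand was used, is not given in the sources used here. With both L26 rows summed, the change was log2 2.39 ± 0.06 in shoots and 0.77 ± 0.05 in roots, and the interaction was 1.53 ± 0.08. Other divisions of shared reads between the copies were not tested.

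The L26 reads also rose relative to the synthetase reads of the same library. The log2 ratio of summed L26 reads to AsnRS reads was 0.86, 0.89 and 0.84 in shoots +N, against −0.54, −0.49 and −0.37 in shoots −N, a difference of 1.33. In roots the log2 ratio was 0.35, 0.29 and 0.38 in +N libraries, against 0.039, 0.14 and 0.077 in −N libraries, a difference of 0.25. Neither organ showed an overlap between its groups, and the exact permutation p was 0.1 in each. This ratio was chosen after the counts had been seen.

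**Figure D3:**
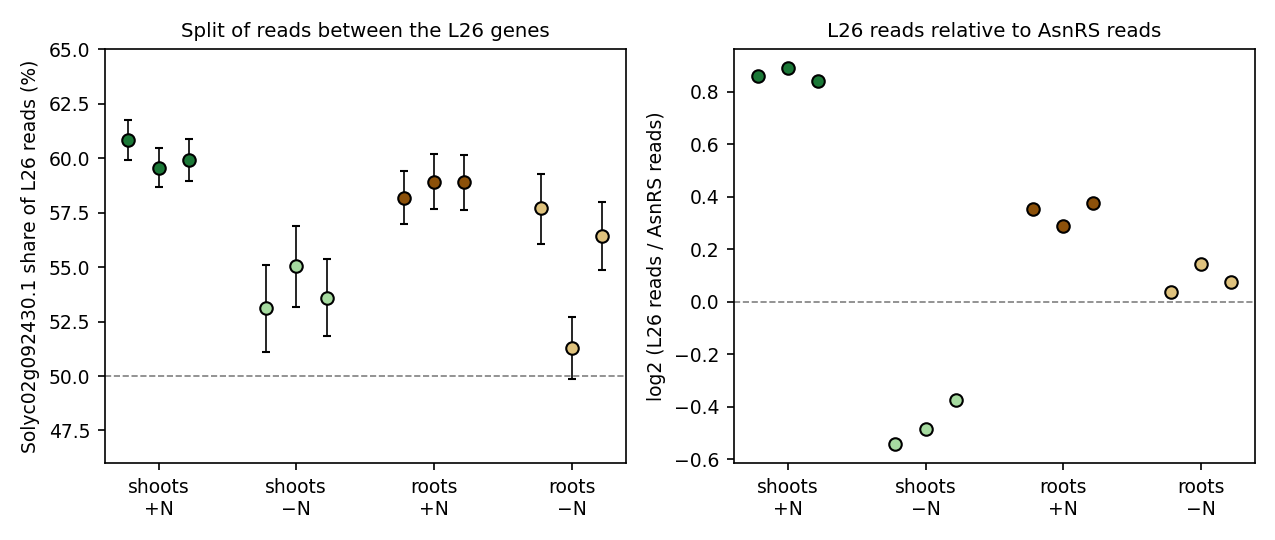
Left, the share of Solyc02g092430.1 in the reads of both L26 genes (%, axis not from 0) in each library of shoots +N, shoots −N, roots +N and roots −N, with exact binomial 95% intervals; the shoots +N libraries lie between 59.6% and 60.8% and the shoots −N libraries between 53.1% and 55.0%, while roots −N replicate 2 stands alone at 51.3%. Right, the log2 ratio of L26 reads to AsnRS reads in the same libraries, between 0.84 and 0.89 in shoots +N and between −0.54 and −0.37 in shoots −N.

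The counts behind these values were deep. The 3 genes held from 1155 to 7052 reads per library, for which counting alone gives a coefficient of variation of 1.24% to 2.79%. The coefficient of variation between replicates was 0.689% to 13.4%, and it exceeded the counting error in 9 of 12 combinations of gene and group. The widest spread was that of Solyc02g064670.1 in roots −N, followed by the L26 genes in shoots −N at 9.38% and 9.12%. The synthetase gene stayed at 2.94% or less in every group.

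The comparison lists were taken from the study's sets of genes whose histone marks it found changed in these plants. Part of the listed genes came from its set in shoots that also rose. Their counts are therefore not independent evidence of direction, nor of a larger change in shoots than in roots. Of 17 other genes for cytosolic ribosomal proteins, 15 could be tested. In shoots 13 of these met the 2-fold rule upwards after +N, against 13.4% of all genes tested, and none fell. The median log2 change was 2.07 for the 15 genes and −0.0082 for all genes tested. The largest changes were those of the 40S protein S5 (Solyc11g042610.2, log2 2.59 ± 0.09), the 60S protein L6 (Solyc05g054070.4, 2.55 ± 0.07) and the 40S protein S23 (Solyc09g007350.3, 2.52 ± 0.05).

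Beside these 15 genes, the change of the L26 gene Solyc02g092430.1 in shoots ranked below 2 of them and above 13, and that of Solyc02g064670.1 below 3 and above 12. The ribosomal protein genes outside the 2-fold rule, named after their values had been seen, were those for L7-1 (Solyc03g117060.4, log2 0.50 ± 0.05) and L15 (Solyc09g056130.4, 0.16 ± 0.15). In roots, S5 was the 1 gene of this partial list that met the 2-fold rule (log2 1.05 ± 0.05). That count lies near the share over all genes tested, of which 6.23% met the rule upwards. At an adjusted p of 0.05, 14 of the 15 genes were higher in roots +N, against 29.2% of all genes tested. Their median change was 0.71, against −0.014 for all genes tested. There Solyc02g092430.1 ranked below 5 and above 10 of them, and Solyc02g064670.1 below 8 and above 7. The interaction was positive at an adjusted p of 0.05 for 13 of the 15 (median 1.15), against 22.9% of all genes tested. For 1 of the 15 it exceeded that of Solyc02g092430.1.

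For the synthetase, the comparison is with 4 other aminoacyl-tRNA synthetase genes, of which few were expressed enough to test. Tyrosine-tRNA ligase (Solyc07g008530.1), which loads tyrosine, was the 1 gene tested in shoots and rose there by 1.18 ± 0.08 on the log2 scale, close to the 1.06 of asparaginyl-tRNA synthetase. In roots it rose by 0.73 ± 0.11, and its interaction of 0.36 ± 0.14 (adjusted p of 0.0333 in edgeR) stood beside 0.45 for the asparaginyl enzyme. Lysyl-tRNA synthetase (Solyc10g076610.2), which loads lysine, was tested in roots and rose there by 1.10 ± 0.06 on the log2 scale, the 1 of 2 synthetase genes tested in roots that met the 2-fold rule. It had 169 CPM in roots +N and 78.8 CPM in roots −N, but only 0.074 CPM in shoots +N and 0.091 CPM in shoots −N. Its interaction was −1.33 ± 0.95 (adjusted p of 0.27 in edgeR). The total-count scaling removed the 2-fold call of the tyrosine enzyme in shoots, of the lysine enzyme in roots and of S5 in roots.

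Of 13 genes for cytosolic translation factors, 11 were tested. In shoots 5 met the 2-fold rule upwards after +N, against 13.4% of all genes tested there, and the list median was 0.51. The largest were initiation factor 6, which keeps free large subunits apart from small ones (Solyc02g082360.4, log2 2.91 ± 0.18), initiation factor 3 subunit A, a scaffold of the factor that binds the small subunit (Solyc10g084670.3, 2.29 ± 0.08), and initiation factor 4B3 (Solyc01g111200.3, 1.78 ± 0.06). In roots 1 met it, against 6.23% of all genes tested there, and the list median was 0.52. This was a gene for elongation factor 1-alpha, which brings loaded tRNAs to the ribosome (Solyc11g069700.2, log2 2.72 ± 0.11). That gene went the other way in shoots (−0.52 ± 0.15, adjusted p of 0.0054), unlike the L26 and synthetase genes. At an adjusted p of 0.05, 8 of the 11 factors were higher and 2 lower in shoots +N, and 9 were higher and 1 lower in roots +N. Over all genes tested, 34.8% were higher and 33.5% lower in shoots +N, and 29.2% were higher and 28.8% lower in roots +N.

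The 7 listed nuclear genes for translation in organelles (plastids or mitochondria) had smaller median changes than the 15 cytosolic ribosomal protein genes tested. All 7 were tested, and in shoots 2 met the 2-fold rule upwards, against 13.4% of all genes tested there. These were elongation factor P (Solyc10g075020.3, log2 1.77 ± 0.08) and elongation factor Tu (Solyc06g071790.3, 1.33 ± 0.04). The list median was 0.66 in shoots and 0.30 in roots. In roots none met the rule, against 6.23% of all genes tested, and 4 passed an adjusted p of 0.05 upwards, against 29.2%. Some of the 7 were far lower in roots: under +N, elongation factor Tu had 939 CPM in shoots and 17.5 CPM in roots. Others were near alike, such as Solyc01g044490.4, with 35.2 CPM in shoots and 32.3 CPM in roots. The part of these levels in the root changes was not tested. Both L26 changes in shoots lay above every gene of this list, and that of asparaginyl-tRNA synthetase lay above its median.

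**Figure D4:**
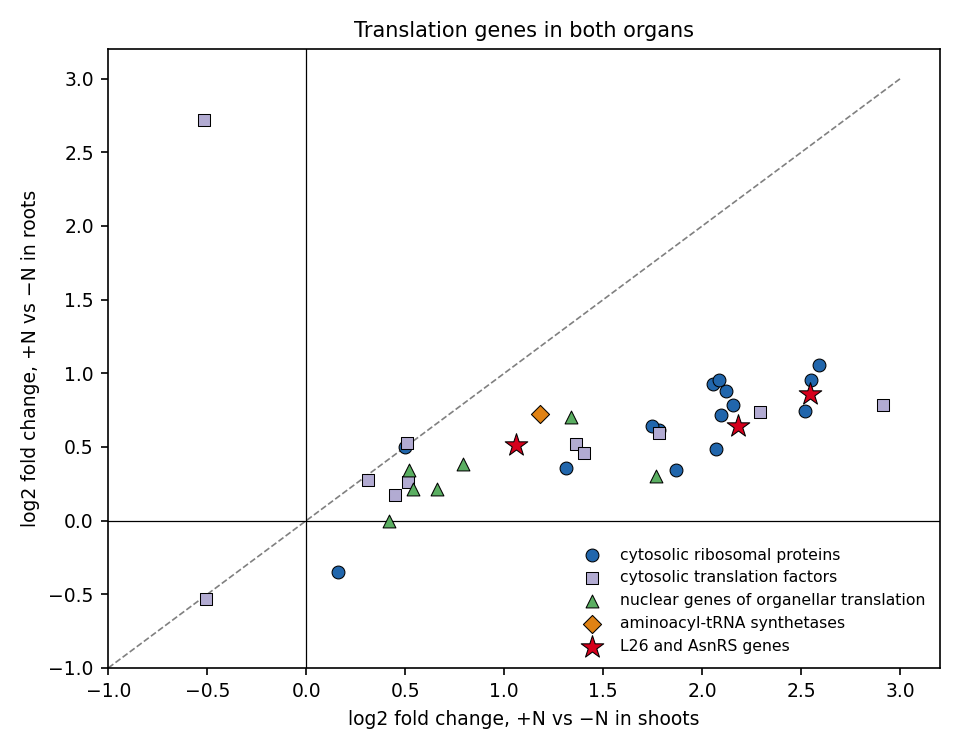
Log2 fold change of +N vs −N in shoots (horizontal axis) and in roots (vertical axis) for the L26 and AsnRS genes (red stars) and the listed translation genes tested in both organs: 15 cytosolic ribosomal proteins, 11 cytosolic translation factors, 7 nuclear genes of organellar translation and 1 aminoacyl-tRNA synthetase. The dashed line marks equal change; the 3 stars lie below it, the L26 genes among the ribosomal protein genes, and an elongation factor 1-alpha gene stands apart at −0.52 in shoots and 2.72 in roots.

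The genes whose log2 CPM over the 12 libraries was most like each of the 3 were ranked by Pearson's r among 22482 other genes. Libraries of one group share their treatment and organ, so these values only describe a shared pattern. The 20 genes most like Solyc02g092430.1 had r of 0.996 to 0.999, and those with a description were led by initiation factor 3 subunit A (Solyc10g084670.3, r = 0.999), a peptidylprolyl isomerase (Solyc03g007170.3, r = 0.997) and ribosomal protein L6 (Solyc05g054070.4, r = 0.996). For Solyc02g064670.1 the 20 had r of 0.992 to 0.996. Those described were led by a subunit of the mitochondrial inner-membrane translocase, TIM13 (Solyc08g083380.2, r = 0.995), ribosomal protein S23 (Solyc09g007350.3, r = 0.994) and the other L26 gene (r = 0.993). For asparaginyl-tRNA synthetase the 20 had r of 0.996 to 0.998. Those described were led by an ATPase of the AAA domain-containing 3 type (Solyc03g097020.4, r = 0.998), ribosomal protein L1 (Solyc01g111420.3, r = 0.998) and the 40S protein S6 (Solyc08g006040.3, r = 0.997).

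The L26 copies shared 7 of their 20 most similar genes, 35.0% of each list, and neither shared any with the synthetase gene. In all 3 lists every one of the 20 genes had a positive fitted change in roots and a larger one in shoots, a pattern that the choice by correlation with these genes fixes. The descriptions come from the study's own gene lists, which cover 4, 4 and 6 of the 20 genes for Solyc02g092430.1, Solyc02g064670.1 and Solyc10g080710.2.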

How the data were processed

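Poly(A) RNA of tomato shoots and roots was sequenced, and the authors deposited raw read counts per gene for 12 libraries (0 columns were left unused). Per the study's methods and labels, reads were trimmed with cutadapt, mapped with TopHat2 to genome build 4.0 and counted with HTSeq; its settings are not stated. The other 72 libraries of the series (ChIP and input) were not used here. Deposited counts were fitted in R 4.3.3 with edgeR 4.0.16 (TMM, a filterByExpr count minimum of 10, quasi-likelihood tests, Benjamini-Hochberg adjustment over all genes tested), each organ apart for +N vs −N and all 12 libraries as 4 group means for the interaction and the organ contrasts. Log2 CPM used a prior count of 2. Calls used an adjusted p of 0.015 and 2-fold, as in the study, or 0.05. Alternatives were DESeq2 1.42.0, its size factors, total counts, other filters, a replicate block, a shared fit, summed L26 rows and leaving out each library. The fits were tested on simulated data. Members and lists were chosen with earlier results of these data known. Named genes were the 3 members, per list and organ at most the 3 largest called changes, 3 identifiers on either side of each member, and per member up to 3 described genes among the 20 most correlated. Each replicate was a pool of plants, so p-values weigh changes against variation between pools, not between single plants. The edgeR fits estimate that variation with help from all genes tested.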

Additional observations from a re-analysis of the deposited data

Results flagged for a closer look

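The +N response differed between shoots and roots for all 3 genes, by the N by organ interaction in edgeR. In the fit of all 12 libraries, the shoot change exceeded the root change by 1.59 ± 0.08 on the log2 scale for Solyc02g092430.1 (adjusted p of 5.81e-13), by 1.44 ± 0.10 for Solyc02g064670.1 (adjusted p of 2.15e-10) and by 0.45 ± 0.06 for Solyc10g080710.2 (adjusted p of 2.24e-06). In every organ and for every one of the 3 genes, each +N library lay above each −N library. The same held for 32.3% of all genes tested in shoots and 32.1% of those tested in roots. Groups of 3 libraries are too small for the check on single outlying libraries.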

How the results depend on the processing

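Of 250 alternative values for the 15 fitted changes of the 3 genes, 246 kept their direction and side of the threshold, an adjusted p of 0.05. This leaves the 2-fold rule aside, which Solyc10g080710.2 no longer met in shoots with total counts (0.77) and in the shared fit (0.97). The other 4 concern Solyc10g080710.2 between shoots −N and roots −N, which passed the threshold in DESeq2's Wald test (−0.14), with DESeq2's size factors (−0.14), with total counts (−0.18), and when single libraries were left out in 1 case (range −0.11 to −0.067). The same-numbered +N and −N libraries of an organ did not deviate together (r of −0.0324 to −0.0035 over 6 pairs, and 0 of 12 libraries correlated best with its own number), so they were not paired. Whether same-numbered root and shoot libraries came from the same plants was not tested. The main fits between organs treated them as independent. With a replicate block the changes in shoots were 2.55, 2.18 and 1.06 for Solyc02g092430.1, Solyc02g064670.1 and Solyc10g080710.2, and those in roots were 0.86, 0.65 and 0.52. The block changed no call of the 3 genes, and it gave 13929 genes called in shoots against 14112 without it, and 11886 in roots against 12197.

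Of 252 alternative counts, 240 stayed within 1.5 times the main count. Many of these compare 0 with 0, since every main count of listed genes that fell was 0. The number of the 3 genes called in shoots was 2 at its lowest, which still counts among the 240. At an adjusted p of 0.05 with no fold limit, roots had 3 of the 3 genes called, 14 ribosomal protein genes, 2 synthetase genes, 9 translation factors higher and 1 lower, and 4 organellar genes; shoots had 8 translation factors higher and 2 lower, and 7 organellar genes. With total counts, 0 ribosomal protein and 0 synthetase genes were called in roots, and 0 synthetase genes in shoots. The fold limit and the scaling make these differences by construction. The share of Solyc02g092430.1 in L26 reads changed by 1.60 to 4.80 percentage points in roots and by 5.78 to 6.75 in shoots when single libraries were left out, with an exact permutation p no smaller than 0.1. The ratio of L26 to synthetase reads, whose alternatives were added after seeing the data, changed by 0.23 to 0.28 in roots and 1.29 to 1.38 in shoots. Depth limits none of the 3 genes, whose lowest count was 1155.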

Other observations

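Of the 18 identifiers lying 1 to 3 places to either side, 16 were tested in each organ. In shoots 5 were higher and 6 lower after +N at an adjusted p of 0.05 in edgeR, and in roots 5 were higher and 7 lower. Over all genes tested, 34.8% were higher and 33.5% lower in shoots, and 29.2% were higher and 28.8% lower in roots, so the counts in shoots lie near the share over all genes. By locus, the median log2 change in shoots was −0.22 beside Solyc02g092430.1, −0.26 beside Solyc02g064670.1 and −0.049 beside Solyc10g080710.2. In roots it was 0.53 beside Solyc02g092430.1, where 3 neighbours were higher and 1 lower, −0.73 beside Solyc02g064670.1, where 1 was higher and 4 lower, and −0.31 beside Solyc10g080710.2, where 1 was higher and 2 lower. Beside the synthetase gene, Solyc10g080725.1 rose by 1.74 ± 0.17 on the log2 scale in shoots and Solyc10g080730.3 fell by 1.44 ± 0.17. Next to Solyc02g064670.1, Solyc02g064690.3 had a log2 change of −1.88 ± 0.16 in shoots and −1.12 ± 0.12 in roots. Solyc02g064660.1, the identifier just before that L26 gene, had 1 read in all 12 libraries together. Near Solyc02g092430.1, Solyc02g092460.3 rose by 1.83 ± 0.07 in roots and Solyc02g092410.3 by 1.07 ± 0.19, whereas in shoots their log2 changes were 0.65 ± 0.22 and −0.22 ± 0.19.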
